A study of Mus musculus with 6 samples.

Results

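The p53 pathway is described here through 34 genes: the p53 gene itself, the genes of its main inhibitors and genes listed as its targets or as part of the pathway. Whether each is a p53 target in these cells was not tested. They were chosen by symbol, with earlier results of these data known, from a list that leaves out Cdkn1a. All 34 had a row in the deposited table of 23079 genes. The libraries came from midbrain dopaminergic neurons of C57BL/6 mice aged 4 months that carry the Dat bacTRAP transgene, in which cells expressing the dopamine transporter gene make a tagged ribosomal protein. In the Satb1 knockdown group (3 libraries) the virus AAV1 carried a short hairpin RNA against Satb1 together with EGFP, and in the control group (3 libraries) it carried a scrambled hairpin together with EGFP. All 6 libraries therefore share the strain, the transgene, the virus and EGFP. The labels give 3 mice in all, do not say which library came from which mouse, call the agent siRNA in the titles and a hairpin in the treatment text, and state total RNA without naming a ribosome capture step. Tissue was taken from the SNpc and VTA, the nigral and ventral tegmental dopamine regions, in 1 mm brain slices. Nothing in the labels says that the libraries of a group were separate animals, so every p-value here reflects the spread among 6 libraries, which may be technical.

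The p53 protein is a transcription factor that is made all the time and destroyed quickly, because Mdm2, a ubiquitin ligase, and its partner Mdm4 bind it. Stress such as DNA damage releases p53 from them, and p53 then activates genes of growth arrest, DNA repair, metabolism and cell death, and also Mdm2, which closes a feedback loop. Since this control acts mostly on the protein, the level of Trp53 mRNA is a poor guide to p53 activity, and its target transcripts are commonly read in its place. Neurons no longer divide, and in them the pathway is known for its part in the response to DNA damage and in cell death.

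p53 binds DNA at a 10-base consensus, called the p53 decamer here: purines, a C, a pair of A or T bases, a G, then pyrimidines. The pattern reads the same on both strands, and the complete element is 2 such decamers with at most 13 bases between them. RefSeq promoter windows (build GRCm38.p6, 250 bases before to 50 after a transcript start) were listed for 27 of the 34 genes. Ddb2, Perp, Pmaip1, Rrm2b, Trp53inp1, Xpc and Zmat3 had no entry. An exact decamer lay in a window of 11 of the 27 genes, or 40.7%, against 9.55% of 27025 genes with an entry. The 27 genes were listed as p53 targets or pathway genes, so this contrast describes the list and not the knockdown. A complete element lay in the windows of 0 of the 27 genes and of 0.074% of all genes. The decamer was present in 6 of 13 genes that rose with the knockdown and in 5 of the other 14. A match is a run of letters in this window and not evidence of binding, and its absence says nothing about p53. Windows are shown of 4 genes that rose (Aen, Ccng1, Gadd45a and Gtse1) and of Mdm2, the 1 gene called lower that had an entry. The Mdm2 call was lost with total counts. These windows let the decamers of genes called in different directions be read side by side. The decamer is in capitals, and each sequence runs 5′ to 3′ on the strand of the gene.
Aen, chr7:78895808-78896107, plus strand: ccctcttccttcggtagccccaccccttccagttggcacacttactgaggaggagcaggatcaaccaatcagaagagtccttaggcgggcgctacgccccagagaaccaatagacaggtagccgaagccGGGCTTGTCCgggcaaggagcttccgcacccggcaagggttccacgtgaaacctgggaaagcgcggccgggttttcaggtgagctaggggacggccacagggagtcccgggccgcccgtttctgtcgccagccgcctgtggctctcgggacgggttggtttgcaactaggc
Ccng1, chr11:40755237-40755536, minus strand: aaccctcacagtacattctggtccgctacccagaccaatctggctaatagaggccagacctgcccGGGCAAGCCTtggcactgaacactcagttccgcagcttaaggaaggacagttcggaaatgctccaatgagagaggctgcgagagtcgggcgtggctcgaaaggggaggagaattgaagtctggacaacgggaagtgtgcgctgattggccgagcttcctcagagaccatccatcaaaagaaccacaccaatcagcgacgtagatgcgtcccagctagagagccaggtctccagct
Gadd45a, chr6:67037358-67037657, minus strand: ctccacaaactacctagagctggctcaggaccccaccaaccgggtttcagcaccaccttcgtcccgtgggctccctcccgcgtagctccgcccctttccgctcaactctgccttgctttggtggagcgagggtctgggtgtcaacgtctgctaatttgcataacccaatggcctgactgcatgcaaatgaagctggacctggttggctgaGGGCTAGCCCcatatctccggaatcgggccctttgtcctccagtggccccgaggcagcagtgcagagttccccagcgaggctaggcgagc
Gtse1, chr15:85859696-85859995, plus strand: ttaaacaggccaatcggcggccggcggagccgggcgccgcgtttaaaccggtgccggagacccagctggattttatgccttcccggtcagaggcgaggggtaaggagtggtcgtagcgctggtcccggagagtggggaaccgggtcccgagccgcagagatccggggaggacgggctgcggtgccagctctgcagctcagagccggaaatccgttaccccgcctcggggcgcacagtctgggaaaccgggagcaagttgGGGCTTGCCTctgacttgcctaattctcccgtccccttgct
Mdm2, chr10:117710709-117711008, minus strand: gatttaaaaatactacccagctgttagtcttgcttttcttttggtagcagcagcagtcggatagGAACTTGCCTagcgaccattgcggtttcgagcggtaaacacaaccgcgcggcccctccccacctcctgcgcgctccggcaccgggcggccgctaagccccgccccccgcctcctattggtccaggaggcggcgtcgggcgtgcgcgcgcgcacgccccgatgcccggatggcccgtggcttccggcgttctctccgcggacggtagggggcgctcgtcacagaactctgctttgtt
The decamer began 185 bases before the start site in Ccng1, 186 before it in Mdm2, 40 before it in Gadd45a and 121 before it in the Aen window shown. A second Aen window, for a start site upstream, holds the same decamer, which there began 10 bases after the start. In Gtse1 it began 9 bases after the start site.

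The libraries held between 147486754 and 170351145 counts, and 1 count corresponded to between 0.00557 and 0.00672 CPM, a count scaled to a fixed library total by trimmed mean of M-values (TMM) factors. Satb1, the target, stood at 82.9, 166 and 61.2 CPM in knockdown libraries 1 to 3, against 351, 350 and 319.8 CPM in control libraries 1 to 3. It was below every control library in all 3 knockdown libraries, least so in library 2 (log2 fold change -1.72 ± 0.26, SE; edgeR adjusted p = 0.00106). Over all 16766 genes tested, edgeR called 8.48% higher and 12.6% lower, and the marker counts below stand beside these shares. Of 8 dopamine neuron markers 5 fell, and their summed level was 7876 to 9971 CPM in the knockdown and 11722 to 12904 CPM in the control. Of 8 oligodendrocyte markers 6 rose, with sums of 576 to 650.4 CPM in the knockdown and 368 to 430 CPM in the control, and of 6 astrocyte markers 2 rose, with sums of 56.8 to 68.7 CPM in the knockdown and 34.1 to 46.0 CPM in the control. Microglia markers summed to 20.9 to 27.4 CPM in the knockdown and 22.6 to 24.6 CPM in the control, with 1 of 8 higher (Csf1r) and 1 lower (P2ry12), although 7 of the 8 had estimates above 0. P2ry12 made up most of that sum, and the other 7 summed to 5.76 to 13.9 CPM in the knockdown and at most 4.67 CPM in any control library. Sums over 5 endothelial markers were 2.90 to 4.41 CPM in the knockdown and 2.56 to 3.14 CPM in the control, over 5 leukocyte markers 0.566 to 0.898 CPM in the knockdown and 0.175 to 0.558 CPM in the control, and over 7 markers of other neurons 259 to 389 CPM in the knockdown and 243 to 313 CPM in the control. None of the 5 endothelial and 2 leukocyte markers that were tested passed the edgeR test, with 0 at an unadjusted p under 0.05. Without Flt1, the most abundant of them, the endothelial sums were 2.09 to 3.87 CPM in the knockdown and 0.948 to 1.68 CPM in the control. Of the markers of other neurons 1 rose, the cholinergic Chat, at 7.35, 6.93 and 10.2 CPM in knockdown libraries 1 to 3 and 2.57, 4.72 and 3.41 CPM in control libraries 1 to 3 (2.29-fold; adjusted p = 0.00516), and without Gad2, the most abundant, the sums were 114 to 165 CPM in the knockdown and 106 to 134 CPM in the control. Sums without the most abundant marker were chosen after the values were seen. Every marker had counts in some library. The part of other cell types in the values below was not tested, and in such bulk samples fewer cells of a type cannot be told apart from less RNA per cell.

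Most of the genes that moved in the p53 pathway moved up. Of the 34 genes, 33 passed the filter on low counts, and of these 15 rose, 4 fell and 14 did not pass the test at an adjusted p under 0.05. Over all 16766 genes tested, 21.1% were called, 8.48% as higher and 12.6% as lower. Because the 34 genes were listed with earlier results of these data known, these shares are a description, and no test of the list was run. The median log2 fold change was 0.67 over the 33 genes and 0.01 over all genes tested. The 15 genes that rose did so by 1.44-fold to 6.52-fold, 7 of them by at least 2-fold, and the 4 that fell did so by 1.28-fold to 1.599-fold. All 3 knockdown libraries lay above all 3 control libraries for 16 of the 33 genes, against 17.9% of all genes tested, and below them for 5, against 20.8%. The p21 gene Cdkn1a, a classical p53 target that is not among the 34, stood at 368, 264 and 444 CPM in knockdown libraries 1 to 3 and at 33.3, 31.1 and 38.1 CPM in control libraries 1 to 3. Scaling by total counts, which moves the median of all genes to 0.18, called 17 of the 33 higher and 0 lower in edgeR, with 2 lower at an unadjusted p under 0.05. Under that scaling 2770 of all genes were higher and 972 lower, so 74.0% of all calls were higher, against 40.2% with TMM. DESeq2 called 16 of the 33 higher and 4 lower, and of all 16766 genes it called 1962 higher and 2384 lower. With 1 library left out, 13 to 17 were called higher and 0 to 3 lower; lower calls numbered 1, 3 and 2 when knockdown library 1, 2 or 3 was dropped, and 2, 0 and 2 when it was control library 1, 2 or 3 (edgeR; the 0 stood beside 4 at an unadjusted p under 0.05).

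**Figure D1:**
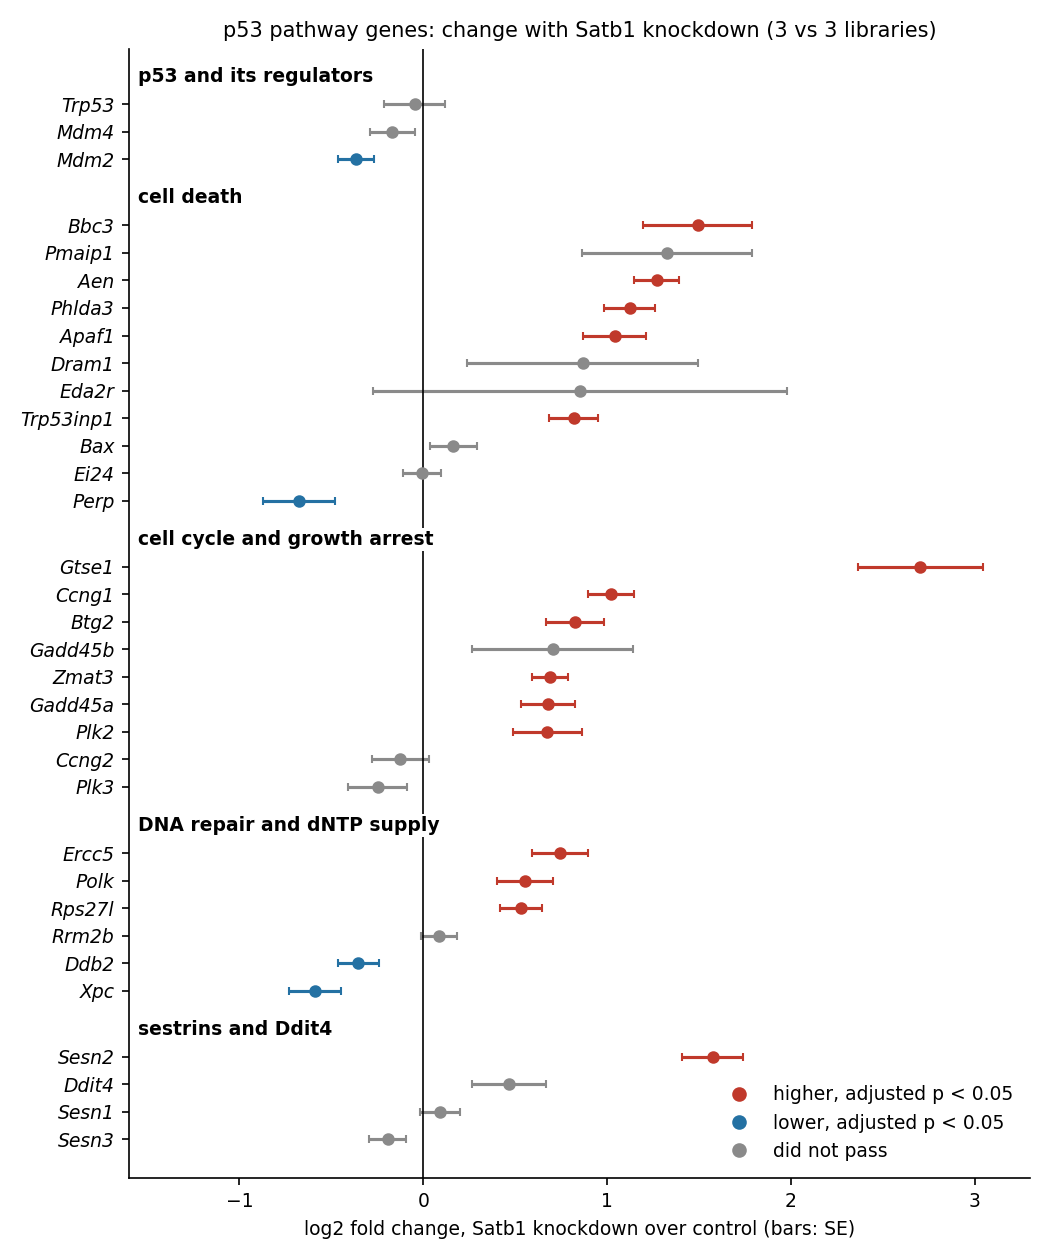
Log2 fold change of each of the 33 tested p53 pathway genes, Satb1 knockdown over control, with its standard error, grouped by role (3 libraries per group). Red marks the 15 genes called higher, blue the 4 called lower and grey the 14 that did not pass; Gtse1 lies farthest to the right at 2.70 and Perp farthest to the left at -0.68, and the 4 blue genes are not called with total-count scaling.

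The p53 gene and both inhibitor genes had estimates below 0, of which those of Trp53 and Mdm4 turned positive with total counts. Trp53 (gene identifier 22059) occupies positions 69580359 to 69591873 of chromosome 11 on the plus strand (GRCm38, or mm10). It had 19.6, 25.8 and 27.8 CPM in knockdown libraries 1 to 3, against 23.1, 21.4 and 31.1 CPM in control libraries 1 to 3. The groups overlapped, and the log2 fold change of -0.05 ± 0.16 (SE; adjusted p = 0.884) did not pass the test and turned to 0.12 with total counts, 0.10 without knockdown library 1 and 0.13 without control library 3. The processed pseudogene Trp53-ps shares a stretch of 353 bases with it at 95% identity or more, so some reads may be uncertain.

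Mdm2, the ubiquitin ligase that is both inhibitor and target of p53, fell slightly. It had 47.5, 49.6 and 45.8 CPM in knockdown libraries 1 to 3, against 62.4, 64.3 and 57.6 CPM in control libraries 1 to 3. Every knockdown library was below every control library. The log2 fold change was -0.37 ± 0.10 (SE; adjusted p = 0.0196), and the call was lost with total counts (-0.20) and without knockdown library 1 (-0.36), knockdown library 3 (-0.32), control library 1 (-0.36) or control library 2 (-0.33). Mdm4, which binds p53 and blocks its activation domain, averaged 35.9 ± 4.85 CPM in the knockdown and 40.3 ± 3.76 CPM in the control (SD, n = 3 each). Its groups overlapped, and the log2 fold change of -0.17 (adjusted p = 0.377) became 0.00370 with total counts.

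Among 12 genes of cell death, 5 rose, 1 fell, 5 did not pass and 1 was not tested. Of the 11 tested, 45.5% were called higher and 9.09% lower, beside 8.48% and 12.6% of all genes tested. Bbc3 encodes PUMA, a BH3-only protein that neutralises survival members of the BCL2 family. It had 5.02, 3.40 and 4.63 CPM in knockdown libraries 1 to 3, against 1.501, 1.12 and 2.02 CPM in control libraries 1 to 3. The groups did not overlap, and Bbc3 rose 2.82-fold (log2 fold change 1.49 ± 0.30, SE; adjusted p = 0.0041). Pmaip1, which encodes the BH3-only protein NOXA, had 1.74, 1.11 and 3.37 CPM in knockdown libraries 1 to 3, against 1.05, 0.863 and 0.565 CPM in control libraries 1 to 3. Its libraries did not overlap either, but the knockdown libraries were far apart and the log2 fold change of 1.33 ± 0.46 (SE; adjusted p = 0.0605) did not pass. DESeq2 called it higher (adjusted p = 0.0179), as did edgeR without knockdown library 2 (1.63; adjusted p = 0.0277), with total counts (adjusted p = 0.0357) and where the filter was a mean level of 1 CPM (adjusted p = 0.030); over all the alternatives its adjusted p reached 0.321.

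Apaf1, the scaffold that assembles with cytochrome c to activate caspases, had 15.9, 14.7 and 19.4 CPM in knockdown libraries 1 to 3, against 6.95, 9.85 and 7.48 CPM in control libraries 1 to 3. It was higher in all 3 knockdown libraries, 2.06-fold overall (log2 fold change 1.04 ± 0.17, SE; adjusted p = 0.00151). Bax, which forms pores in the outer mitochondrial membrane, averaged 28.5 ± 2.86 CPM in the knockdown and 25.4 ± 3.01 CPM in the control (SD, n = 3 each). Its libraries overlapped and it did not pass the test (log2 fold change 0.16; adjusted p = 0.400). The readthrough model Gm45808 covers 12.2% of its exon bases.

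Aen, a nuclease that adds to apoptotic DNA breakdown, had 118, 98.7 and 118 CPM in knockdown libraries 1 to 3, against 53.7, 44.0 and 40.8 CPM in control libraries 1 to 3. Even the lowest knockdown library was above the highest control library by a wide gap, and the change of 2.41-fold had the smallest p of the 33 genes (log2 fold change 1.27 ± 0.12, SE; adjusted p = 0.000154). Phlda3, a pleckstrin-homology protein that holds back the kinase Akt, had 39.1, 30.8 and 42.6 CPM in knockdown libraries 1 to 3, against 18.4, 17.96 and 15.3 CPM in control libraries 1 to 3. It rose 2.18-fold with no overlap (adjusted p = 0.000411). Trp53inp1, a stress protein that acts with p53 and in autophagy, averaged 23.4 ± 3.19 CPM in the knockdown and 13.3 ± 0.270 CPM in the control (SD, n = 3 each), and rose 1.76-fold (adjusted p = 0.0014).

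Perp, a membrane protein of desmosomes that takes part in p53-dependent apoptosis, went the other way. It had 4.92, 5.28 and 3.81 CPM in knockdown libraries 1 to 3, against 8.35, 6.87 and 7.18 CPM in control libraries 1 to 3. The groups did not overlap (log2 fold change -0.68 ± 0.19, SE; adjusted p = 0.0265). The call was lost with total counts (-0.51; adjusted p = 0.0848), and also without knockdown library 1 (-0.71) or 3 (-0.53) and without control library 1 (-0.59), 2 (-0.73) or 3 (-0.71). Ei24, a protein of the endoplasmic reticulum membrane, averaged 60.6 ± 5.01 CPM in the knockdown and 60.9 ± 4.60 CPM in the control (SD, n = 3 each; adjusted p = 0.976).

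The remaining death genes had few counts. Dram1, a lysosomal membrane protein of autophagy, lay between 0.578 and 1.18 CPM in the knockdown and between 0.214 and 0.677 CPM in the control, with overlap (adjusted p = 0.368). Eda2r, a receptor of the tumour necrosis factor family, had 55, 39 and 54 counts in knockdown libraries 1 to 3 and 28, 50 and 0 counts in control libraries 1 to 3 (adjusted p = 0.65). The death receptor gene Fas was removed by the filter, with 2, 6 and 3 counts in knockdown libraries 1 to 3 and 0, 0 and 20 counts in control libraries 1 to 3, so that its control mean came from 1 library.

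**Figure D2:**
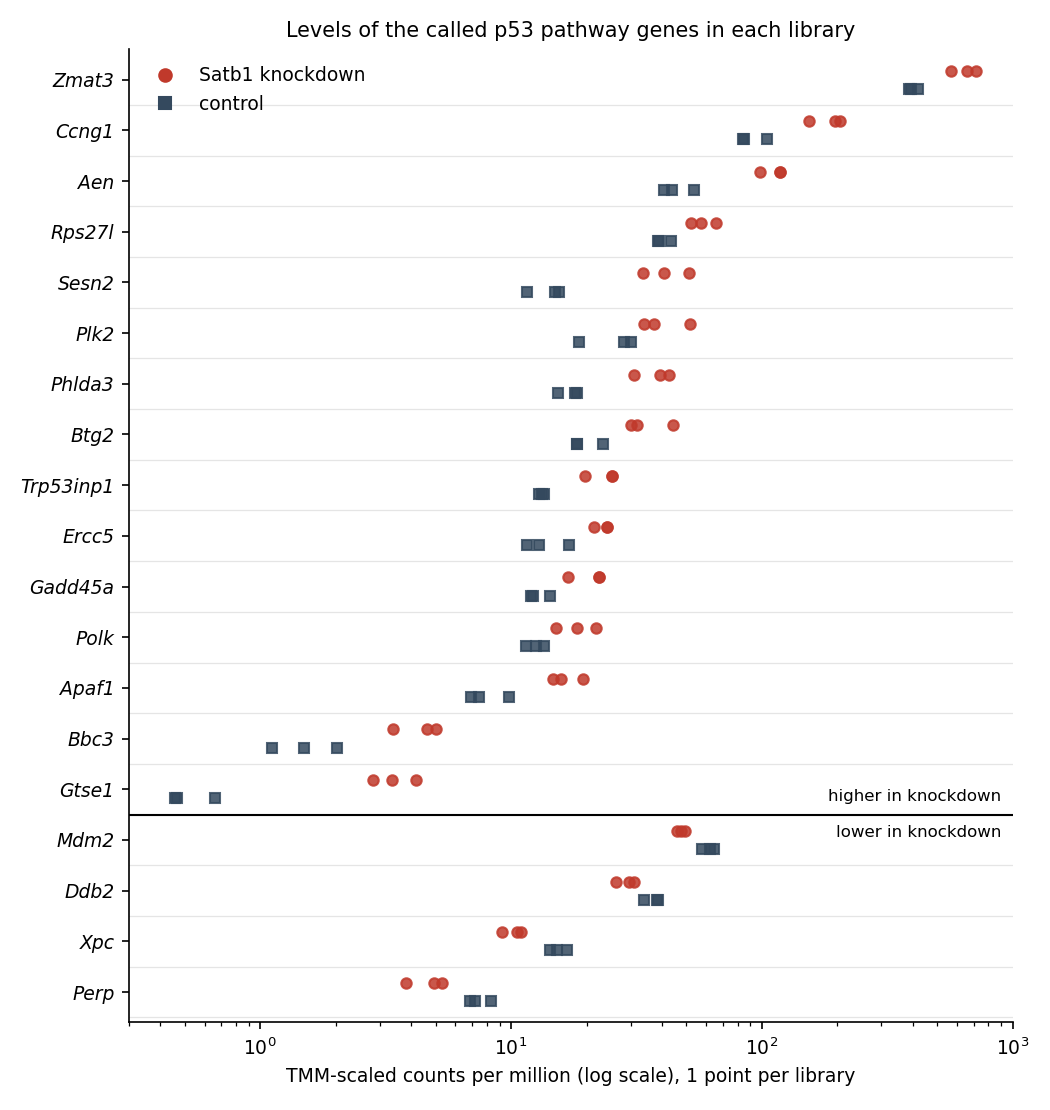
TMM-scaled CPM on a log axis for the 19 p53 pathway genes called higher or lower, 1 point per library, with Satb1 knockdown libraries as circles above the control libraries as squares. For each of the 19 genes the 3 points of one group lie to one side of the other group's, 15 to the right and 4 to the left in the knockdown, and the 4 lower genes are not called with total-count scaling.

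Of 9 genes of the cell cycle and growth arrest, 6 rose and 3 did not pass, and among them was the largest fold change of the 33 tested genes. The shares were 66.7% higher and 0% lower, beside 8.48% and 12.6% of all genes tested. Gtse1, a microtubule-bound protein of the G2 phase that can lower p53 levels, rose 6.52-fold. It had 3.34, 2.80 and 4.19 CPM in knockdown libraries 1 to 3, against 0.658, 0.467 and 0.457 CPM in control libraries 1 to 3, which corresponds to 600, 431 and 667 counts and to 107, 72 and 68 counts. The gap between the groups was larger than either group's range (log2 fold change 2.70 ± 0.34, SE; adjusted p = 0.00043). Ccng1, which encodes cyclin G1, an adaptor of protein phosphatase 2A that acts on Mdm2, had 196, 155 and 205 CPM in knockdown libraries 1 to 3, against 105, 85.1 and 84.2 CPM in control libraries 1 to 3. It rose 2.03-fold with no overlap (log2 fold change 1.02 ± 0.12, SE; adjusted p = 0.0004).

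Zmat3, a zinc finger protein that binds RNA, stood at 56.6 CPM per kilobase of exon in the knockdown and 35.0 in the control, where only Rps27l was higher of the 34. Unscaled for length it had 660.1, 567 and 713 CPM in knockdown libraries 1 to 3, against 393, 421 and 387 CPM in control libraries 1 to 3. All knockdown libraries were above all control libraries, and the 1.61-fold increase had a small error (log2 fold change 0.69 ± 0.10, SE; adjusted p = 0.000637). Btg2, an antiproliferative protein that promotes removal of poly(A) tails, averaged 35.4 ± 7.64 CPM in the knockdown and 19.98 ± 2.85 CPM in the control (SD, n = 3 each) and rose 1.77-fold (adjusted p = 0.00338).

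Gadd45a, a small stress protein that binds Pcna and p21, had 22.5, 16.8 and 22.4 CPM in knockdown libraries 1 to 3, against 12.3, 14.3 and 12.01 CPM in control libraries 1 to 3. It rose 1.599-fold (adjusted p = 0.00697), with knockdown library 2 closest to the controls. The antisense transcript E230016M11Rik covers 19.1% of its exon bases, and reads cannot be separated there if counting ignored strand. Plk2, a polo-like kinase known for its action at synapses, had 34.0, 37.0 and 51.9 CPM in knockdown libraries 1 to 3, against 18.7, 30.2 and 28.2 CPM in control libraries 1 to 3. The groups lay close together without overlap (log2 fold change 0.67 ± 0.19, SE; adjusted p = 0.0233), and the call was lost without knockdown library 3 (0.48) or control library 1 (0.49).

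Close relatives within the pathway did not all pass the test. Per kilobase of exon, Ccng1 averaged 52.7 CPM in the knockdown and 26.0 CPM in the control, while Ccng2, the cyclin G2 gene, averaged 1.63 CPM in the knockdown and 1.78 CPM in the control and did not pass (log2 fold change -0.12; adjusted p = 0.625; 0.04 with total counts). Plk3, a polo-like kinase of the stress response, averaged 12.3 ± 2.61 CPM in the knockdown and 14.6 ± 0.524 CPM in the control (SD, n = 3 each; adjusted p = 0.307). Gadd45b lay between 1.31 and 2.39 CPM in the knockdown and between 0.766 and 1.68 CPM in the control, and did not pass (log2 fold change 0.71 ± 0.44, SE; adjusted p = 0.286). Its estimate was close to that of Gadd45a, with a larger error.

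The difference between relatives was compared as the ratio of their per-kilobase levels within each library, which no scaling changes. The 5 pairs were chosen with the values known, and with 3 libraries against 3 an exact two-sided permutation test cannot go below p = 0.10. Ccng1 over Ccng2 was 32.9, 25.2 and 40.4 in knockdown libraries 1 to 3, against 17.1, 12.8 and 14.2 in control libraries 1 to 3. Sesn2 over Sesn1 was 0.972, 0.904 and 1.34 in knockdown libraries 1 to 3, against 0.470, 0.292 and 0.403 in control libraries 1 to 3. These pairs, and likewise Sesn2 over Sesn3 and Plk2 over Plk3, did not overlap between the groups, each at that smallest p (0.125 adjusted over the 5 pairs). Gadd45a over Gadd45b averaged 11.6 ± 4.68 in the knockdown and 12.02 ± 3.77 in the control (SD, n = 3 each; exact permutation p = 0.7) and overlapped.

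**Figure D3:**
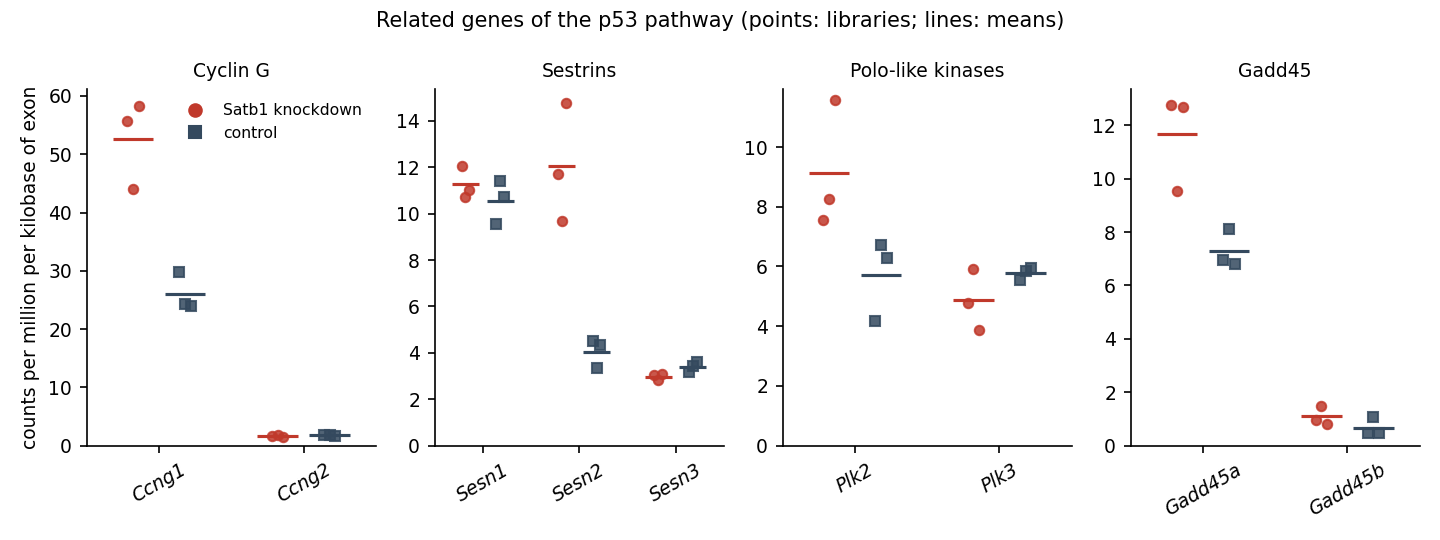
Levels in CPM per kilobase of exon for 4 groups of related p53 pathway genes, 1 point per library and a line at each mean, Satb1 knockdown (red circles) left of control (dark squares). Ccng1, Sesn2, Plk2 and Gadd45a are higher in every knockdown library, while the groups of Ccng2, Sesn1, Plk3 and Gadd45b overlap and Sesn3 lies slightly lower in the knockdown without passing the test.

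Sestrins lower mTORC1 signalling under stress, and 1 of the 3 rose, also under each of the 14 alternatives. With Ddit4 they formed a group of 4 tested genes. The shares in it were 25% higher and 0% lower, beside 8.48% and 12.6% of all genes tested. Sesn2, which also senses leucine, had 40.7, 33.7 and 51.3 CPM in knockdown libraries 1 to 3, against 15.6, 11.6 and 15.02 CPM in control libraries 1 to 3. The lowest knockdown library was more than 2 times the highest control library, and the increase was 2.98-fold (log2 fold change 1.58 ± 0.16, SE; adjusted p = 0.000239). Sesn1 averaged 44.9 ± 2.77 CPM in the knockdown and 42.1 ± 3.76 CPM in the control (adjusted p = 0.6), and Sesn3 averaged 45.4 ± 2.16 CPM in the knockdown and 52.0 ± 3.16 CPM in the control (adjusted p = 0.201; SD, n = 3 each). Per kilobase of exon, Sesn2 stood at 12.1 CPM in the knockdown, near Sesn1 at 11.3, and at 4.05 CPM in the control, where Sesn1 stood at 10.6. Ddit4, which encodes REDD1, another inhibitor of mTORC1, had 8.93, 6.69 and 11.7 CPM in knockdown libraries 1 to 3, against 6.39, 6.83 and 6.56 CPM in control libraries 1 to 3. Knockdown library 2 lay within the control range, and the log2 fold change of 0.47 ± 0.20 (SE; adjusted p = 0.124) passed the test with total counts (0.64) and without knockdown library 2 (0.65).

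The group of DNA repair and DNA precursor supply moved in both directions: of 6 genes, 3 rose, 2 fell and 1 did not pass. Among the 3 that rose was Rps27l, which encodes a ribosomal protein variant. The shares were 50% higher and 33.3% lower, beside 8.48% and 12.6% of all genes tested. Ercc5, the XPG endonuclease of nucleotide excision repair, had 24.1, 21.3 and 24.0 CPM in knockdown libraries 1 to 3, against 12.9, 11.5 and 17.0 CPM in control libraries 1 to 3. It rose 1.68-fold with no overlap (adjusted p = 0.00483). Xpc, which recognises DNA lesions in the same repair route, had 10.9, 10.6 and 9.21 CPM in knockdown libraries 1 to 3, against 15.2, 16.8 and 14.3 CPM in control libraries 1 to 3. It was lower in all 3 knockdown libraries (log2 fold change -0.59 ± 0.14, SE; adjusted p = 0.0108), a call lost with total counts (-0.42; adjusted p = 0.0566) and without control library 2 (-0.53; adjusted p = 0.0531).

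Ddb2, the damage sensor that hands ultraviolet lesions to Xpc, averaged 28.9 ± 2.37 CPM in the knockdown and 36.9 ± 2.70 CPM in the control (SD, n = 3 each). Its log2 fold change of -0.35 ± 0.11 (SE; adjusted p = 0.0428) was the call nearest the threshold. It was lost with total counts (-0.18), with relative log expression scaling (-0.34), where the filter was a mean level of 1 CPM (-0.31), and without knockdown library 1 (-0.28), knockdown library 2 (-0.37), control library 2 (-0.32) or control library 3 (-0.33). Exons of Acp2 on the opposite strand cover 23.8% of its exon bases.

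Polk, a polymerase that copies past damaged bases, had 15.1, 18.3 and 21.8 CPM in knockdown libraries 1 to 3, against 13.5, 12.6 and 11.5 CPM in control libraries 1 to 3. Knockdown library 1 was only just above the controls, and the 1.47-fold increase (adjusted p = 0.0217) was not called without knockdown library 3 (log2 fold change 0.43), control library 2 (0.55) or control library 3 (0.49). Rps27l, a ribosomal protein variant that binds Mdm2, averaged 58.3 ± 6.75 CPM in the knockdown and 40.4 ± 2.63 CPM in the control (SD, n = 3 each). It rose 1.44-fold (adjusted p = 0.00609) and had the highest level per kilobase of exon of the 34 genes, 71.5 CPM in the knockdown and 49.5 CPM in the control. Rrm2b, the p53-inducible ribonucleotide reductase subunit that supplies DNA precursors in resting cells, averaged 93.0 ± 7.16 CPM in the knockdown and 87.6 ± 5.56 CPM in the control and overlapped (SD, n = 3 each; adjusted p = 0.594).

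The size of the increases differed between the knockdown libraries. Over the 33 tested genes the log2 level over the control mean had medians of 0.53, 0.42 and 0.80 in knockdown libraries 1 to 3, where the median of all tested genes was -0.01, -0.02 and -0.00221. Knockdown library 2, which retained the most Satb1, was the lowest knockdown library for 13 of the 15 genes that rose, against 895 of the 1421 genes called higher in the whole table. Plk2 and Polk were the exceptions, being lowest in knockdown library 1. Knockdown library 3 was the highest for 10 of the 15 genes, and for 779 of the 1421, or 54.8%. With 3 knockdown libraries no relation to the remaining Satb1 was tested.

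**Figure D4:**
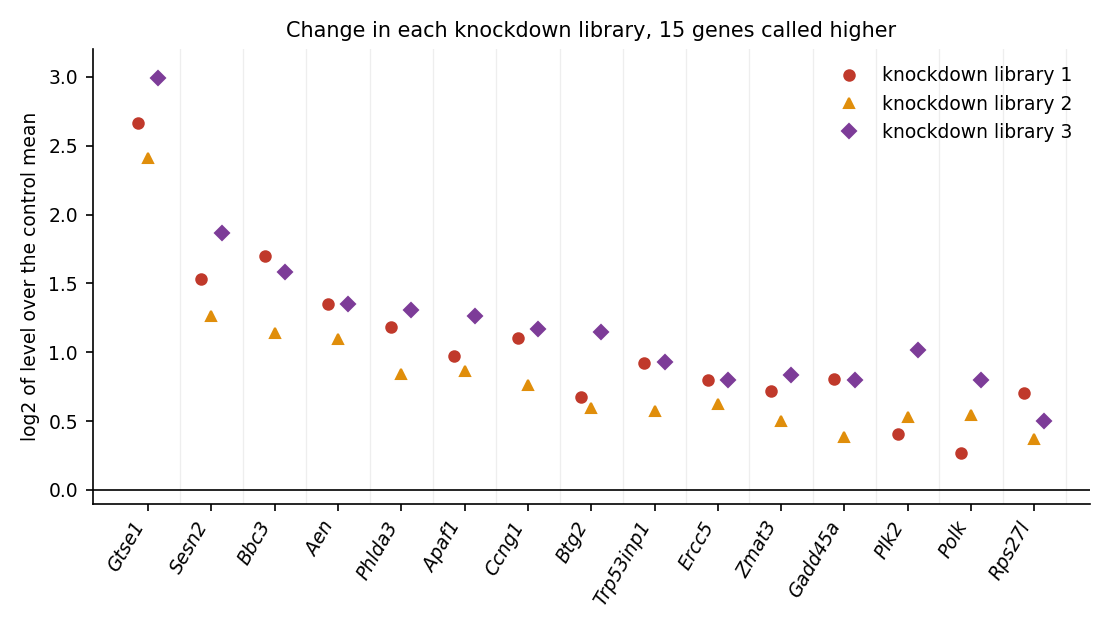
Log2 of the level in each knockdown library over the control mean for the 15 p53 pathway genes called higher, ordered by fold change. Every point is above 0, and the triangle of knockdown library 2 is the lowest point for 13 of the genes, Plk2 and Polk excepted.

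Other genes of the pathway were counted in 2 lists, also chosen with earlier results of these data known. Among 30 genes that sense DNA damage or modify p53, 28 were tested, 1 rose and 1 fell, or 3.57% each way, with a median log2 fold change of -0.04, against 8.48% higher and 12.6% lower over all genes. These counts depended on the setting. With total counts 8 were higher and 0 lower in edgeR, with 1 lower at an unadjusted p under 0.05. DESeq2, run with its own scaling, called 2 higher and 1 lower, beside 1962 and 2384 of all 16766 genes. With 1 library left out, 0 to 2 were higher and 0 to 1 lower. Ppm1d, the WIP1 phosphatase that switches p53 off again and is itself a target, had 19.5, 14.9 and 22.7 CPM in knockdown libraries 1 to 3, against 9.53, 13.2 and 14.1 CPM in control libraries 1 to 3. It rose 1.56-fold with a narrow gap between the groups (adjusted p = 0.0259). The call was lost without knockdown library 1 (log2 fold change 0.62), knockdown library 3 (0.50), control library 1 (0.48) or control library 2 (0.69). Hipk2, a kinase that phosphorylates p53, averaged 50.6 ± 9.49 CPM in the knockdown and 70.9 ± 10.7 CPM in the control (SD, n = 3 each; log2 fold change -0.49, adjusted p = 0.0312), a call lost with total counts (-0.32) and without knockdown library 1 (-0.46), knockdown library 3 (-0.35), control library 1 (-0.51) or control library 3 (-0.36).

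Among 35 further reported targets, 33 were tested, 8 rose and 5 fell, or 24.2% and 15.2% beside the same 8.48% and 12.6% of all genes, with a median log2 fold change of 0.28. The share that fell was near that of all genes, and with total counts 13 were higher and 2 lower. Dropping control library 1 or 2 left 5 of them higher, dropping knockdown library 1 or control library 2 left 2 lower, and dropping control library 3 left 3 lower. Psrc1, a spindle protein, had 2.50, 1.42 and 3.65 CPM in knockdown libraries 1 to 3, against 0.166, 0.409 and 0.450 CPM in control libraries 1 to 3, and rose 7.38-fold (log2 fold change 2.88 ± 0.51, SE; adjusted p = 0.00219). Abhd4, a lipid hydrolase, averaged 26.2 ± 4.05 CPM in the knockdown and 8.18 ± 1.26 CPM in the control and rose 3.21-fold (adjusted p = 0.000145). Lpin1, a phosphatidate phosphatase, averaged 44.6 ± 6.26 CPM in the knockdown and 25.0 ± 0.419 CPM in the control and rose 1.79-fold (adjusted p = 0.000711; SD, n = 3 each). The gene listed as 9630033F20Rik, now named Tigar, a regulator of glycolysis, fell: it had 103, 140.3 and 118 CPM in knockdown libraries 1 to 3, against 188, 181 and 216 CPM in control libraries 1 to 3 (log2 fold change -0.69 ± 0.12, SE; adjusted p = 0.00192).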

How the data were processed

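RNA sequencing counts of 3 Satb1 knockdown and 3 control libraries were analysed. The authors deposited 1 table of raw counts per gene, and the submitters' processing notes name TopHat2 2.0.8 and mm10. How reads were counted (tool, strand, several alignments) is not given in the sources used here. Columns were matched to samples by title.

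All 23079 rows were read. Counts were tested with the edgeR 4.0.16 quasi-likelihood test (R 4.3.3; 2-sided) with TMM scaling, filterByExpr (minimum count 10, minimum total 15) and Benjamini-Hochberg adjustment over 16766 genes at 0.05. CPM used the TMM factors, and standard errors came from the F statistic. Coordinates, exon lengths and overlaps came from GENCODE M21 (GRCm38), near copies from blastn 2.17.0 (at least 100 bases) and promoters from RefSeq. Alternatives were 2 other scalings, DESeq2 1.42.0, limma-voom (limma 3.58.1), 2 other filters, a robust fit, a replicate block and each library left out. The test was also run on counts simulated from its own fitted model, with equal numbers of genes raised and lowered. That run cannot judge the choice of scaling or how well the model describes the real libraries. Chi-square per gene between replicates was 58.5 to 156, far above sampling noise, so no library was a copy.

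All 34 genes are named, and of the 2 other lists at most the 4 called genes with the smallest p. The members, roles and lists were chosen with earlier results of these data known.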

Additional observations from a re-analysis of the deposited data

How the results depend on the processing

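Of the 15 higher genes, 13 were called under all 14 alternatives, and the number of higher genes was 13 to 17. Each of the 4 lower calls was lost under at least 1 alternative. With total counts 0 p53 pathway genes were lower in edgeR, with 2 at an unadjusted p under 0.05. The whole table then had 2770 higher and 972 lower genes, so that 74.0% of the calls were higher, against 40.2% with TMM. Under the same scaling the upstream list had 8 higher and 0 lower, with 1 lower at an unadjusted p under 0.05. The other targets had 13 higher and 2 lower. DESeq2, run with its own scaling and not total counts, called 4 p53 pathway genes and 1 upstream gene lower, beside 2384 of all genes. The upstream list had 2 higher genes with DESeq2 and with the filter at a mean of 1 CPM, where 1962 and 1793 of all genes were higher. Estimates of genes that did not pass turned sign: Ei24 to 0.00660 with relative log expression scaling or DESeq2, 0.16 with total counts and 0.0395 with the filter at a mean of 1 CPM, and, with total counts, Trp53 to 0.12, Mdm4 to 0.00370 and Ccng2 to 0.0448. Apart from the change of scale or filter itself, the cause was not tested.

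Leaving out 1 library gave 804 to 1356 higher and 1132 to 2054 lower genes in the table (804 and 1132 without knockdown library 1, 910 and 1322 without control library 2), 0 to 3 lower p53 pathway genes (0 without control library 2, with 4 at an unadjusted p under 0.05), 0 to 2 higher and 0 to 1 lower upstream genes, and 5 to 8 higher and 2 to 5 lower other targets. Every library except knockdown library 2 changed an upstream count, whose zeros stood beside 1 to 3 genes at an unadjusted p under 0.05 in edgeR. Trp53 ranged from -0.15 to 0.13 and Ei24 from -0.0667 to 0.0544.

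Replicate numbers gave no clear pairing: deviations of same-numbered libraries correlated at 0.06, 0.01 and 0.11. Knockdown libraries 1 and 3 correlated best with the control library of their own number, and knockdown library 2 with control library 1 (0.05). These values cannot decide whether same-numbered libraries shared an animal. The fit with a replicate block called 15 p53 pathway genes higher and 4 lower. It called 1924 and 2789 in the table, against 1421 and 2115 without the block, 3 and 2 upstream genes and 11 and 6 other targets. Fas, Eda2r and Dram1 had the fewest counts of the 34 genes, and their control libraries also differed widely.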
